A study of Mus musculus with 6 samples.

Results

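Macrophages are the resident phagocytes of pancreatic islets, the small groups of endocrine cells that make insulin, glucagon and other hormones. A set of 10 genes that mark them was followed by RNA sequencing in islets of pregnant and nonpregnant mice. The 10 genes were chosen by name as known macrophage markers (Lyz2, C1qa, C1qb, C1qc, Mrc1, Itgam, Csf1r, Cd68, Cd74 and H2-Aa). All 10 were found, among 19940 genes in all, and each averaged at least 10 reads. The pregnant group held 3 samples from C57BL6/J mice at gestational day 14.5. The nonpregnant group held 3 samples from C57BL6/J mice whose labels call them littermates. No genetic change or drug is named for either group, and the labels used here give no age. The design text speaks of 5 animals in each group, and nothing in the labels says whether a sample came from 1 animal. All islets were hand-picked after an enzyme solution had been injected into the bile duct, so each library holds every cell type of the islet and what clings to it.

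Macrophages in tissues depend on the receptor Csf1r, which binds the growth factors CSF1 and IL-34 and keeps the cells alive. Islet macrophages in mice lie close to blood vessels and beta cells and are known for presenting peptides on MHC class II molecules. C1q, the starter molecule of the classical complement pathway, is assembled from the products of C1qa, C1qb and C1qc and is made mainly by macrophages. In bulk RNA, fewer macrophages and less RNA per macrophage cannot be told apart. None of the 10 genes marks macrophages alone, since Cd74 and H2-Aa are also active in B cells and dendritic cells, Itgam in neutrophils and NK cells, and Mrc1 in some endothelial cells.

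The authors deposited a mean read count per gene for each group and no value per library, so no spread between samples can be given here. Calls use the adjusted p-value of the authors' own test, at a threshold of 0.05 over all genes. Over all genes the mean reads added up to 87654449 for pregnant and 84493872 for nonpregnant islets. Sums over genes are given in RPM, reads for each 1000000 mean reads of the group. Levels of different genes are compared in RPKM, the RPM divided by the annotated exon length in kb, called the length-scaled level below.

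By the GENCODE M21 annotation Mrc1 lies on chromosome 2, Itgam on 7, Lyz2 on 10, Cd68 on 11, H2-Aa on 17, and Csf1r and Cd74 on 18. The C1q genes sit next to each other on the minus strand of chromosome 4, within 18.7 kb at 136880129 to 136898803 of GRCm38. The 250 bases before the RefSeq start of 4 markers, on GRCm38.p6, were taken and are shown as far as they lie outside the gene by GENCODE M21, because these genes stand for the groups described below: the lysozyme gene that was called, 2 of the clustered C1q genes and an MHC class II gene. GENCODE M21 starts Lyz2 and C1qc further upstream than RefSeq, so 49 and 151 of their 250 bases lie inside the gene and are not printed. The printed parts lie at chr10:117282322-117282522 for Lyz2, chr4:136886201-136886450 for C1qb, chr4:136893066-136893164 for C1qc and chr17:34287824-34288073 for H2-Aa, all on the minus strand, and each is written 5′ to 3′ on that strand. Capitals mark GAGGAA on either strand, a core found in sites of the myeloid factor PU.1. They also mark ATTGG on either strand, the core of the Y box of MHC class II promoters. Other forms of PU.1 sites were not searched, so a stretch without capitals may still hold them.
Lyz2: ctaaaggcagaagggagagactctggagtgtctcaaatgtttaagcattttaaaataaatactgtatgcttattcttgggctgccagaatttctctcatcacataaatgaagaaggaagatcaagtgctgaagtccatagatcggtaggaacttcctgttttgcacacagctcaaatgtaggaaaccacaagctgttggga
C1qb: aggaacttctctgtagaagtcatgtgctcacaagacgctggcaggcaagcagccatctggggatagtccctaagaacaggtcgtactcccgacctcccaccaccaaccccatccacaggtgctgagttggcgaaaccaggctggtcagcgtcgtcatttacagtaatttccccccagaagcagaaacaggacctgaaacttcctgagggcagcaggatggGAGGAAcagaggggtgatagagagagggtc
C1qc: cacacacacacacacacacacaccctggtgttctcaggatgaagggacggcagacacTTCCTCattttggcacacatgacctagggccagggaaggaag
H2-Aa: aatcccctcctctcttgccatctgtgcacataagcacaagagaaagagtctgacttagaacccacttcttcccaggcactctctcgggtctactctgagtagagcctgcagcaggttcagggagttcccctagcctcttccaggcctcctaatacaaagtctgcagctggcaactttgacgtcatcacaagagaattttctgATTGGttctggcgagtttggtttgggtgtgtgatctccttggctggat

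Over the whole 250 bases, GAGGAA or its reverse complement TTCCTC stood once in the C1qb stretch and once in the C1qc stretch, and the Lyz2 and H2-Aa stretches held no copy. RefSeq stretches were matched for 7 of the 10 markers (all but C1qa, Csf1r and Cd74), and 5 of the 7 held this motif (C1qb, C1qc, Mrc1, Itgam and Cd68), against 23.3% of 32851 RefSeq promoters of the same length. ATTGG or CCAAT stood once in the H2-Aa stretch and was held by 3 of the 7 (H2-Aa, Mrc1 and Cd68), against 33.8% of the same promoters. In Cd68 a CCAAT was followed directly by a GAGGAA, with no base shared. Such matches describe letters and show no binding.

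For 6 of the 10 macrophage markers the log2 ratio of pregnant over nonpregnant islets lay within 0.22 of 0 in the authors' deposited table. Lyz2, the lysozyme gene of macrophages, rose 1.32-fold (adjusted p = 0.0319, from the authors' deposited table) and was the only one of the 10 that was called. Of the 10 markers, 1 was called higher and 0 lower, beside 11.7% of all genes called in the authors' deposited table. Among all genes 7.57% were called higher and 4.15% lower, so a count of 1 in 10 is close to the background. At an unadjusted p under 0.05 there were 4 markers (Lyz2, C1qa, Mrc1 and Itgam), beside 22.2% of all genes in either direction. All 4 had the higher mean in pregnant islets, and 12.4% of all genes had such a p with a log2 ratio above 0. The log2 ratio was above 0 for 7 markers and below 0 for 3, from -0.08 to 1.03, in the authors' deposited table. Its median over the 10 was 0.18, and over all genes it was -0.02.

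**Figure D1:**
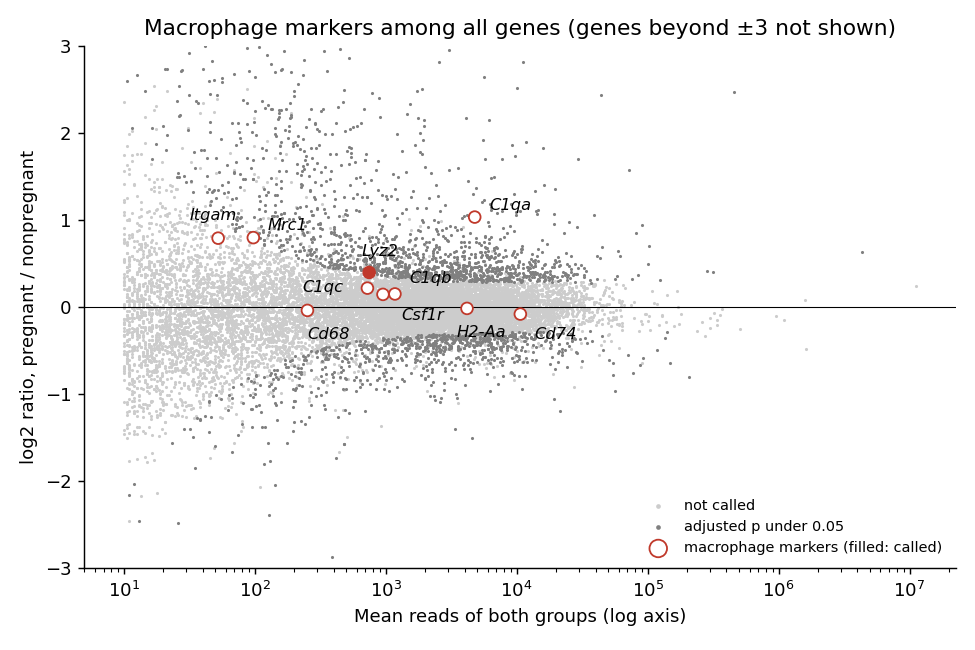
Log2 ratio of pregnant over nonpregnant islets (vertical) against the mean reads of both groups (horizontal, log axis) for 15682 genes with at least 10 mean reads; 121 genes beyond 3 in either direction are off the axis. Dark points have an adjusted p under 0.05, and circles are the 10 macrophage markers, of which Lyz2 alone is filled as called; C1qa, Mrc1 and Itgam lie near 1 without a call, and the other 6 lie within 0.22 of 0.

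By length-scaled level the markers spanned a wide range that kept nearly the same order in both groups. Cd74 and C1qa were highest, at 69.6 and 69.9 RPKM in pregnant islets and at 78.2 and 36.4 in nonpregnant islets. C1qb and H2-Aa followed, at 12.8 and 12.3 in pregnant islets, against 12.3 and 13.2 in nonpregnant islets. Then came Lyz2, C1qc, Cd68 and Csf1r, from 7.29 down to 1.96 in pregnant and from 5.88 down to 1.88 in nonpregnant islets. Mrc1 and Itgam were lowest, at 0.220 and 0.150 in pregnant islets and 0.134 and 0.0919 in nonpregnant islets. The order of neighbours differed between the groups for C1qa with Cd74 and for C1qb with H2-Aa. With 1 mean per group, whether neighbours differ by more than the spread over samples cannot be said.

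**Figure D2:**
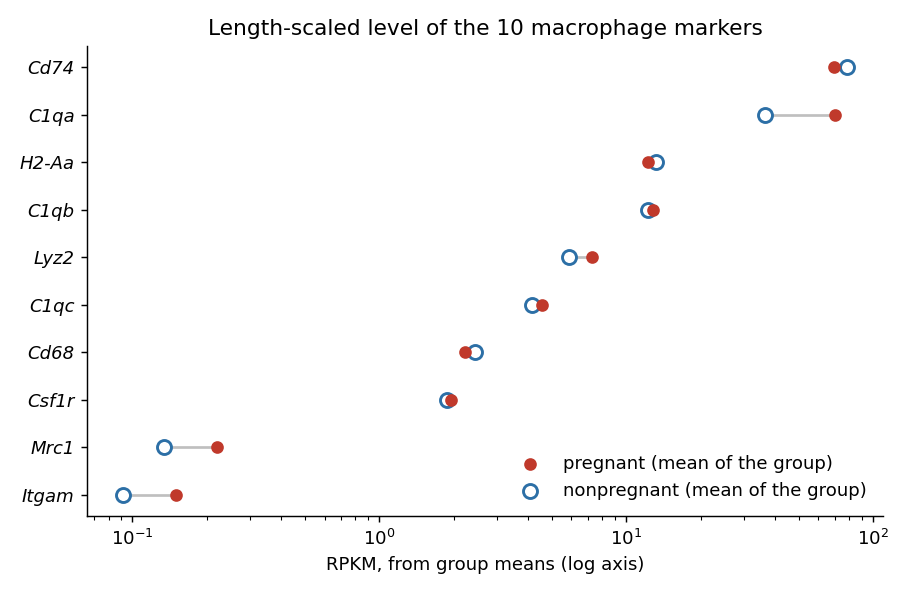
Length-scaled level of each marker in RPKM (horizontal, log axis), with filled points for the pregnant mean and open points for the nonpregnant mean; no error can be drawn from group means. The open and filled points lie close together for 6 markers, and the widest gap is that of C1qa, at 69.9 in pregnant and 36.4 in nonpregnant islets.

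None of the 3 C1q genes was called, beside 11.7% of all genes called, so with so few genes this count says little. The ratios of the 3 genes were unequal, although their products join in 1 protein. Whether the ratios differ from each other was not tested. C1qa, the gene of the A chain, had an authors' mean of 6370 reads in pregnant islets, against 3195 reads in nonpregnant islets, in the authors' deposited table. The listed fold change was 2.05, and it was not called (p = 0.0103, adjusted p = 0.0752) in the authors' deposited table. C1qb, the gene of the B chain, had 1223 reads in pregnant and 1129 reads in nonpregnant islets (fold change 1.11, adjusted p = 0.566, from the authors' deposited table). For C1qc, the gene of the C chain, the authors' deposited table gave 771 reads in pregnant and 679 reads in nonpregnant islets (fold change 1.16, adjusted p = 0.559). The C1qb and C1qc means lay close together in the 2 groups, and the C1qa means lay further apart.

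The chains also differed in level within each group. C1qa stood 5.45 times as high as C1qb per length in pregnant islets and 2.96 times in nonpregnant islets. Against C1qc the C1qa level was 15.3 times as high in pregnant and 8.74 times in nonpregnant islets. The level ratio of C1qb to C1qc was 2.82 in pregnant and 2.95 in nonpregnant islets. The 3 chains are built into C1q in equal numbers, and their length-scaled levels were unequal in both groups. These ratios depend on the exon length, which joins the exons of all annotated transcripts and came to 1040 bases for C1qa, 1088 for C1qb and 1931 for C1qc. Of the 50-base stretches of C1qa transcripts, 0 were shared with transcripts of another gene, and no annotated gene overlaps C1qa. The same held for C1qb and C1qc. Epha8, the next gene upstream of C1qa, was listed with 170 reads in pregnant and 175 reads in nonpregnant islets in the authors' deposited table (fold change 0.99).

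Genes with about as many reads as C1qa and at least as large a ratio were called, while C1qa was not. Genes with 0.8 to 1.2 times its mean reads numbered 1379, and 14 of them had a log2 ratio at least as far from 0 as that of C1qa in the authors' deposited table. All 14 were called, and 0 of them had a larger p than C1qa. The smallest absolute log2 ratio called among the 1379 was 0.29. Group means cannot show how the 3 libraries of a group were spread. Genes of acinar cells, the digestive-enzyme cells around islets, also had large ratios with moderate p-values. Of 15 acinar genes 14 were called higher, with fold changes of 6.93 to 22.94 and p-values between 0.000989 and 0.00443 in the authors' deposited table. Whether they share their spread over libraries with C1qa was not tested.

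**Figure D3:**
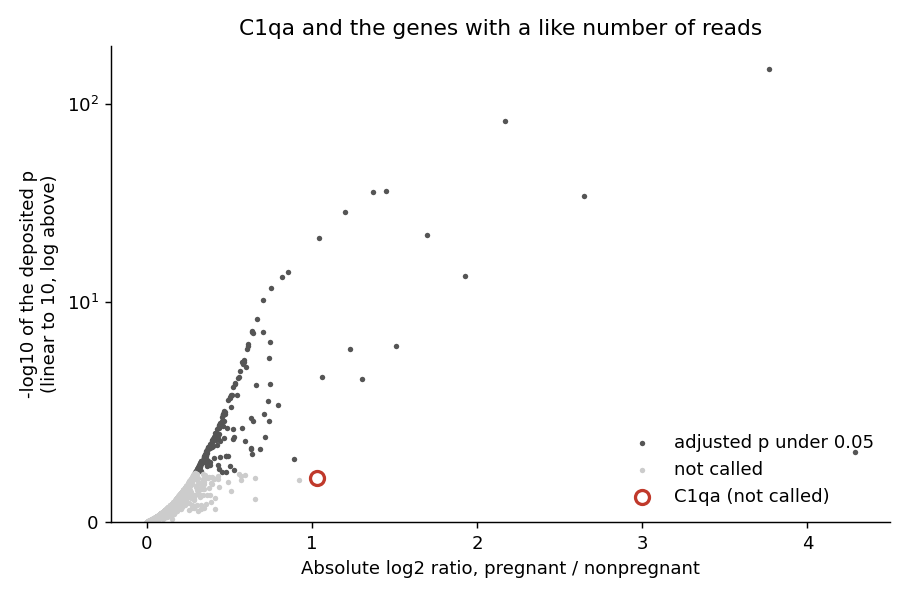
The -log10 of the deposited p-value (vertical, linear to 10 and log above) against the absolute log2 ratio (horizontal) for C1qa and the 1379 genes with 0.8 to 1.2 times its mean reads. Dark points were called at an adjusted p under 0.05; C1qa, the open circle, has the largest absolute ratio among those not called.

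Among the genes of phagocytosis and digestion, Lyz2 was called and Cd68 was not. Lyz2 encodes a lysozyme, which cuts bacterial cell walls, and had 841 reads in pregnant and 654 reads in nonpregnant islets in the authors' deposited table. Scaling to the summed mean reads left its log2 ratio at 0.31, against 0.40 as listed in the authors' deposited table. Its close paralog Lyz1 shares 15.4% of the 50-base stretches of Lyz2, which makes the split of reads uncertain there. Lyz1 itself was listed with 4 reads in pregnant and 5 reads in nonpregnant islets in the authors' deposited table. Cd68, a membrane protein of lysosomes and the usual stain for macrophages, had 246 reads in pregnant and 259 reads in nonpregnant islets (fold change 0.97, adjusted p = 0.992, from the authors' deposited table). The means of Lyz2 and Cd68 lay on opposite sides of a ratio of 1.

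Of the surface receptors, none was called, beside 11.7% of all genes called, so with so few genes this count says little. Csf1r had 990 reads in pregnant and 916 reads in nonpregnant islets (fold change 1.11, adjusted p = 0.605, from the authors' deposited table). The exons of Csf1r share 15.1% of their bases with Hmgxb3 on the opposite strand, and without strand in the counting the reads of this part cannot be assigned. Hmgxb3 had more reads than Csf1r, 3390 in pregnant and 3737 in nonpregnant islets in the authors' deposited table. Mrc1, the mannose receptor of macrophages that take up glycoproteins, had 123 reads in pregnant and 72 reads in nonpregnant islets (fold change 1.74, adjusted p = 0.206, from the authors' deposited table). Itgam, the integrin chain CD11b that joins with Itgb2 into complement receptor 3, had 66 reads in pregnant and 39 reads in nonpregnant islets (fold change 1.73, adjusted p = 0.209, from the authors' deposited table). Mrc1 and Itgam had the fewest reads of the 10 markers and listed ratios close to each other. Among 518 genes with 0.8 to 1.2 times the mean reads of Itgam the smallest absolute log2 ratio called was 1.01, and among 511 such genes for Mrc1 it was 0.78, in the authors' deposited table. The log2 ratios of Itgam and Mrc1 themselves were 0.79 and 0.80 in the authors' deposited table. Of the genes with like reads and a ratio at least as far from 0, 48 of 106 were called for Itgam and 63 of 95 for Mrc1. The spread of Itgam and Mrc1 over libraries is not known, so the ratio at which they would be called cannot be given. Of Itgam exon bases 68.7% overlap Gm49368, a gene on the same strand in GENCODE M21. The authors' deposited table does not list Gm49368, and how their counting treated these bases is not given.

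The antigen presentation genes had ratios close to 1. Cd74 encodes the invariant chain, which guards the peptide groove of MHC class II molecules, and had 10246 reads in pregnant and 11091 reads in nonpregnant islets (fold change 0.95, adjusted p = 0.804, from the authors' deposited table). H2-Aa, the alpha chain of the class II molecule I-A, had 4106 reads in pregnant and 4248 reads in nonpregnant islets (fold change 0.99, adjusted p = 1.00, from the authors' deposited table). In H2-Ab1, the beta chain of the same molecule, the authors' deposited table gave 3122 reads in pregnant and 3076 reads in nonpregnant islets (fold change 1.04, adjusted p = 0.934). H2-Eb1, the beta chain of I-E, was at a fold change of 0.96 (adjusted p = 0.917, from the authors' deposited table). The length-scaled level of H2-Ab1 was 1.12 times that of H2-Aa in pregnant and 1.07 times in nonpregnant islets. Ciita, the master regulator of class II transcription, had 134 reads in pregnant and 141 reads in nonpregnant islets (fold change 0.97, adjusted p = 1.00, from the authors' deposited table). Of 14 other class II presentation genes 0 were called in the authors' deposited table, beside 11.7% of all genes. Their median log2 ratio was 0.06. At the reads of Cd74 and H2-Aa the smallest absolute log2 ratios called were 0.28 and 0.30 in the authors' deposited table. These are ratios of other genes. The spread of Cd74 and H2-Aa over libraries is not known, so the ratio at which they would be called cannot be given.

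Summed over the 10 markers, the level came to 285 RPM in pregnant and 264 RPM in nonpregnant islets, a ratio of 1.08. This sum rests on C1qa and Cd74, and without C1qa the ratio was 0.940. For the 3 C1q genes alone the ratio of sums was 1.61, and 1.06 without C1qa. No error can be given for such ratios of single means.

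Of 36 further macrophage and myeloid genes, 1 was called higher and 0 lower in the authors' deposited table, beside 7.57% of all genes called higher and 4.15% lower. The median log2 ratio of the 36 was 0.18. Trem2, a lipid-sensing receptor of macrophages and microglia, rose 2.5-fold (67 reads in pregnant and 27 reads in nonpregnant islets, adjusted p = 0.012, from the authors' deposited table). Adgre1, the gene of the F4/80 antigen listed as Emr1, had 371 reads in pregnant and 382 reads in nonpregnant islets (fold change 0.99, adjusted p = 1.00, from the authors' deposited table). Cx3cr1, the fractalkine receptor, stood at a fold change of 1.16, and Spi1, the gene of PU.1 listed as Sfpi1, at 1.03 (adjusted p = 0.59 and 0.994, from the authors' deposited table). The signalling adaptor genes Tyrobp and Fcer1g were at 1.13 and 1.23 (adjusted p = 0.689 and 0.261, from the authors' deposited table). Ctss, a lysosomal protease that trims the invariant chain, was at 1.01 in the authors' deposited table with 2203 reads in pregnant and 2234 reads in nonpregnant islets. All of these defining genes had reads in both groups.

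The growth factors of the Csf1r receptor were called, whereas Csf1r was not; whether these ratios differ was not tested. Csf1, the main macrophage growth factor, rose 1.48-fold (2101 reads in pregnant and 1455 reads in nonpregnant islets, adjusted p = 4.06e-05, from the authors' deposited table). Il34, the other ligand of this receptor, rose 1.88-fold (94 reads in pregnant and 51 reads in nonpregnant islets, adjusted p = 0.0302, from the authors' deposited table). Csf1 was the more abundant ligand, with a length-scaled level 8.29 times that of Il34 in pregnant and 10.6 times in nonpregnant islets. Csf2rb, the shared beta chain of the GM-CSF, IL-3 and IL-5 receptors, rose 3.48-fold (190 reads in pregnant and 55 reads in nonpregnant islets, adjusted p = 4.66e-05, from the authors' deposited table). Other genes, nearly always the paralog Csf2rb2, share 12.3% of the Csf2rb 50-base stretches, which leaves that part of the reads uncertain. Of the 13 genes of myeloid growth factors and their receptors, 3 were called higher and 0 lower in the authors' deposited table. This stands beside 7.57% of all genes called higher and 4.15% lower. The median log2 ratio of the 13 was -0.05.

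Further along the complement cascade 2 of 27 measured genes were called higher and 0 lower in the authors' deposited table. Among all genes 7.57% were called higher and 4.15% lower, so these counts are close to the background. The median log2 ratio of the 27 was 0.05. C3, the central component that tags targets for uptake, rose 1.83-fold (865 reads in pregnant and 484 reads in nonpregnant islets, adjusted p = 0.00116, from the authors' deposited table). C6, a part of the membrane attack complex, rose 2.74-fold (48 reads in pregnant and 17 reads in nonpregnant islets, adjusted p = 0.0147, from the authors' deposited table). Itgb2, the partner chain of Itgam, was at a fold change of 1.1 (adjusted p = 0.852, from the authors' deposited table).

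Among 31 chemokines, cytokines and effector genes of macrophages, 2 were called higher and 1 lower in the authors' deposited table. These counts too are close to the background of 7.57% of all genes called higher and 4.15% lower. The median log2 ratio of the 31 was 0.26. Ccl9, a chemokine of the myeloid lineage, rose 2.05-fold (98 reads in pregnant and 48 reads in nonpregnant islets, adjusted p = 0.0107, from the authors' deposited table). Igf1, a growth factor that tissue macrophages can secrete, rose 2.12-fold (101 reads in pregnant and 48 reads in nonpregnant islets, adjusted p = 0.0286, from the authors' deposited table). Arg1, the arginase of alternatively activated macrophages, fell to 0.73 (2605 reads in pregnant and 3672 reads in nonpregnant islets, adjusted p = 0.000651, from the authors' deposited table). Neither Igf1 nor Arg1 is limited to macrophages, and the cell type that held their reads cannot be told from whole islets.

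**Figure D4:**
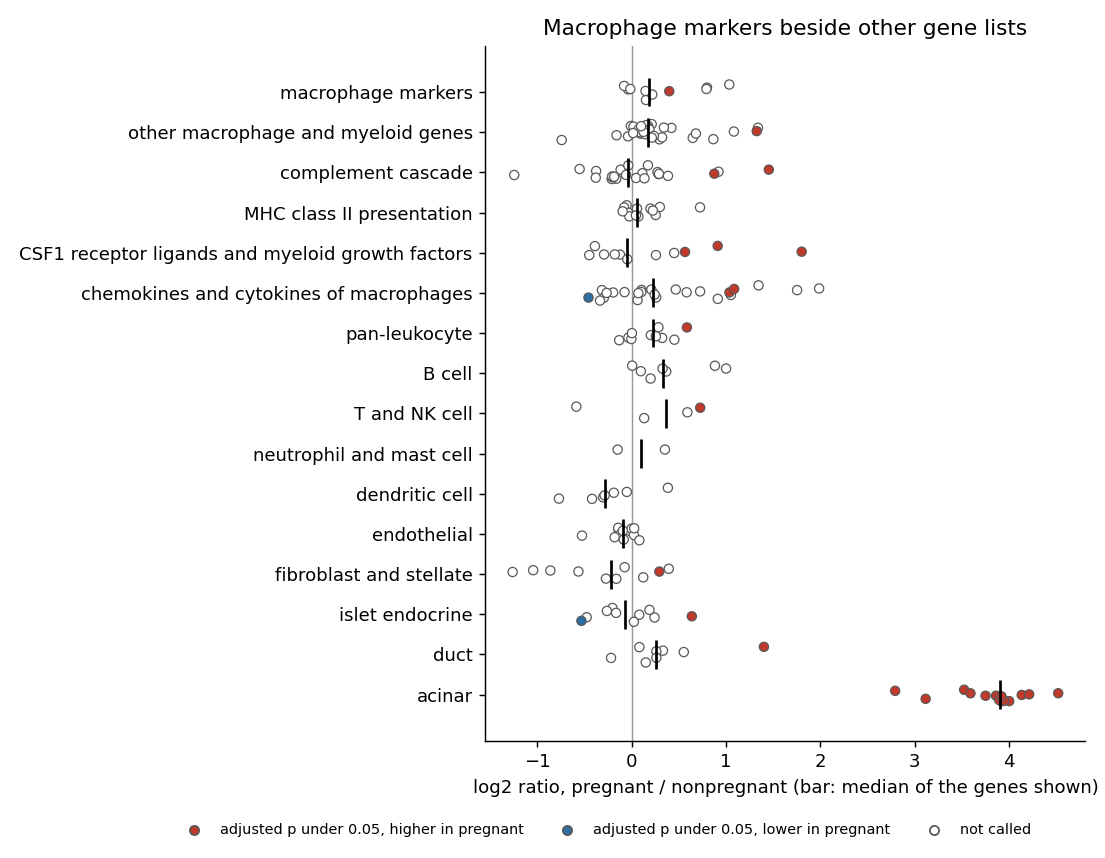
Log2 ratio of pregnant over nonpregnant islets (horizontal) for each gene with at least 10 mean reads in 16 gene lists (rows), with a black bar at the median of the genes shown. Red points were called higher and blue points lower at an adjusted p under 0.05; the macrophage markers lie around 0.18 with Lyz2 as the only call, and 14 acinar genes lie between 2.79 and 4.52.

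Markers of other cell types were examined beside these results. Their counts stand beside 7.57% of all genes called higher and 4.15% lower in the authors' deposited table. Of 10 pan-leukocyte genes 1 was called higher and 0 lower in the authors' deposited table, with summed reads of 35.5 RPM in pregnant and 30.9 RPM in nonpregnant islets. Ptprc, the leukocyte antigen CD45, stood at a fold change of 0.91 (adjusted p = 0.887, from the authors' deposited table), and Lcp1, an actin-bundling protein of leukocytes, rose 1.5-fold (adjusted p = 0.000231, from the authors' deposited table). Of the 50-base stretches of Lcp1, 8.17% are shared with other genes, so part of its reads is uncertain. The 8 B cell genes had 0 calls in the authors' deposited table, and their sums were 14.3 RPM in pregnant and 12.9 RPM in nonpregnant islets. Cd79a, a chain of the B cell receptor, had 969 reads in pregnant and 864 reads in nonpregnant islets in the authors' deposited table, so B cell reads were present beside those of Cd74 and H2-Aa. The part of B cells in the class II values was not tested. T and NK cell genes summed to 2.72 RPM in pregnant and 2.09 RPM in nonpregnant islets, with 1 of 12 called higher and 0 lower in the authors' deposited table. That gene was Lck, a T cell kinase, at 1.65-fold (adjusted p = 0.0342, from the authors' deposited table), while the T cell receptor component Cd3e had 2 reads in pregnant and 5 reads in nonpregnant islets. Neutrophil and mast cell genes had 0 calls among 9 measured in the authors' deposited table, and S100a8, a calcium-binding protein of neutrophils, was listed with 3 reads in pregnant and 0 reads in nonpregnant islets. The 9 dendritic cell genes also had 0 calls in the authors' deposited table, and summed to 5.88 RPM in pregnant and 7.89 RPM in nonpregnant islets. Flt3, a receptor of dendritic cells and their precursors, had 14 reads in pregnant and 11 reads in nonpregnant islets in the authors' deposited table. Median log2 ratios were 0.23 for pan-leukocyte, 0.35 for B cell and 0.24 for T and NK cell genes. They were 0.75 for neutrophil and mast cell and -0.29 for dendritic cell genes, beside 0.18 for the 10 markers. Only 4 of the 12 T and NK cell genes and 2 of the 9 neutrophil and mast cell genes reached 10 mean reads.

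The same shares over all genes, 7.57% higher and 4.15% lower, stand beside the counts of the remaining lists. Endothelial genes had 0 calls among 13 in the authors' deposited table and summed to 549 RPM in pregnant and 599 RPM in nonpregnant islets. Pecam1 was at a fold change of 0.99 (adjusted p = 0.999, from the authors' deposited table). Among 10 fibroblast and stellate genes 1 was called higher and 0 lower in the authors' deposited table, namely Rgs5, a pericyte gene, at 1.23-fold (adjusted p = 0.0412). Col1a1, a fibrillar collagen, was at 0.68 (adjusted p = 0.69, from the authors' deposited table). Of 8 duct genes 1 was called higher and 0 lower in the authors' deposited table, which was the mucin gene Muc1 at 2.64-fold (adjusted p = 0.0216). Endocrine genes had 1 call higher and 1 lower among 10 in the authors' deposited table, and Ins2 stood at 1.18 (adjusted p = 0.288). Ins1 rose 1.55-fold and Hhex, a delta cell factor, fell to 0.69 (adjusted p = 1.61e-08 and 0.000142, from the authors' deposited table). Median log2 ratios were -0.09 for endothelial, -0.22 for fibroblast and stellate, 0.26 for duct and -0.07 for endocrine genes. The acinar list had the largest median log2 ratio of the lists, 3.90, and summed to 12434 RPM in pregnant and 939 RPM in nonpregnant islets, with a lowest authors' mean of 18 reads in pregnant and 0 reads in nonpregnant islets. Its part in the calls of Lyz2, Trem2, C3, C6, Csf1, Il34, Csf2rb, Ccl9, Igf1, Arg1, Lcp1 and Lck was not tested.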

How the data were processed

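RNA of mouse islets was sequenced after a TruSeq library preparation, per the labels' protocols. The submitters' processing notes name TopHat2 2.0.12, TopHat, Bowtie, HTSeq 0.5.3p3 and GRCm38. The use of strand, the scaling of libraries and the tool behind the authors' test are not given in the sources used here. Per the file headers, the deposited table gives for each gene the authors' mean reads per group, a fold change (linear ratio of pregnant over nonpregnant), its log2, a p-value and its adjusted form. The deposited log2 ratio lay a median of 0.04 above the log2 ratio computed from the means, a factor of 1.02 (10102 genes over 500 reads in both groups). Of 19940 genes, 21 stood on more than 1 line and were counted once.

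The planned count test needs values per library, so the authors' adjusted p was used. Benjamini-Hochberg values recomputed over all genes differed from it by at most 0.00203 (procedure tested on simulated data). Exon lengths, positions and overlaps came from GENCODE M21 on GRCm38, which held 96.6% of the gene IDs. RPM and RPKM were computed here from the group means. Shared sequence was counted as 50-base stretches found in transcripts of another gene on either strand. Promoters came from RefSeq (GRCm38.p6), the 250 bases before its start, printed only outside the GENCODE gene. Older symbols were matched by gene ID. Nothing says that samples came from separate animals, and the spread behind the authors' p-values is not known. The markers and lists were chosen with earlier results of these data known. The text names all 10 markers, up to 8 called genes of each list (the acinar genes only as a range), and a fixed set of defining genes; Epha8 was named after its value was seen. Python 3.11.15 with pandas 2.3.3, numpy 2.4.6, scipy 1.17.1 and matplotlib 3.10.9 was used.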

Additional observations from a re-analysis of the deposited data

How the results depend on the processing

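The count of 1 called marker stayed at 1 when p was adjusted over those 15682 genes that reached 10 mean reads, or was recomputed over all genes. With thresholds of 0.1 and 0.01 on the adjusted p of the authors' deposited table the count was 2 (Lyz2 and C1qa, beside 15.4% of all genes called) and 0. Over all genes the authors' deposited table gave 1458 calls at 0.01 and 2337 at 0.05. The ratio of summed reads of the 10 markers was 1.08. It was 1.12 unscaled, 1.14 when acinar and insulin genes were left out of the scaling, 0.940 without C1qa, 1.27 without Cd74 and 1.12 without H2-Aa. The ratio of the C1q sums was 1.61. It was 1.67 unscaled, 1.70 without acinar and insulin genes in the scaling, 1.06 without C1qa, 1.78 without C1qb and 1.69 without C1qc. Scaling to summed mean reads moved log2 ratios of the 10 markers by -0.10 to -0.09. All 10 kept their sign under this scaling, centring on the median, scaling without acinar and insulin genes, and pseudocounts of 0.5 and 5. Shifts in these settings lay between -0.10 and 0.02, and the smallest listed ratio above 0 was 0.146 (Csf1r). The signs above 0 could therefore hardly have changed. H2-Aa, listed at -0.015, stood at -0.00 after centring, so its sign carries little weight. The 30 called entries of the lists kept their sign under the 3 scalings. Their smallest absolute log2 ratio was 0.293 (Rgs5), beyond shifts of this size, so these signs could hardly have changed. No paired analysis was possible because the columns hold group means and no replicate numbers. Leaving out single replicates, edgeR and DESeq2 were not run for the same reason. The depth of single libraries is not known, so no counting interval is given.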
